A study of Homo sapiens with 12 samples.

Results

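Heat-shock-low analogue arrays are here the 4 arrays of treated U2OS cells on which HSPA6 stayed near its vehicle level. U2OS is an established human osteosarcoma line. The treated cells were given a synthetic strigolactone analogue, MEB55 or ST362, at 5 ppm, and the vehicle cells were given acetone, in each case for 6 h or 24 h. The series held 12 Illumina HumanHT-12 bead arrays, 2 of each compound or vehicle at each time. The 4 heat-shock-low arrays were replicate 2 at 6 h and replicate 1 at 24 h, of MEB55 and likewise of ST362, and they were compared with all 4 vehicle arrays. The members were chosen by measured signal: the log2 of the deposited, non-normalized HSPA6 signal had to lie less than 3 above the mean of the vehicle arrays. The grouping therefore crosses the time labels, with 1 array of each compound at each time on either side of it. Among genes picked out after their values were seen, 3 followed the time labels in one order on the vehicle and the other analogue arrays and in the opposite order on the heat-shock-low arrays. Their values are at the end of the results, and how many other genes did so was not counted. Whether the time labels of the heat-shock-low arrays are right was not tested. The dose was matched by mass per volume and not by molarity.

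Strigolactones are plant hormones made from carotenoids, and their synthetic analogues slow the growth of several tumour cell lines. HSPA6 encodes an inducible HSP70 chaperone that is nearly silent in unstressed human cells and is switched on by heat shock factor. RN7SK is the noncoding RNA that holds the transcription elongation factor P-TEFb in an inactive complex, and SNORD3A, SNORD3C and SNORD3D are copies of U3, the small nucleolar RNA needed to cut the ribosomal RNA precursor. DHRS2 encodes a short-chain dehydrogenase. Most of these small RNAs carry no poly(A) tail, while the labelling reaction of the arrays is primed from poly(A).

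HSPA6 separated the analogue arrays into 2 sets with a wide gap. Its deposited signal was 107.3 and 89.0 on the MEB55 arrays in the set and 90.8 and 90.4 on the ST362 arrays, against 99.9, 84.1, 86.7 and 82.6 on the vehicle arrays. MEB55 6 h replicate 2 was above every vehicle array, and the other 3 lay within the vehicle range. After background correction and quantile normalization all 4 lay above it, at 4.75 to 5.61 on the heat-shock-low arrays and 4.41 to 4.73 on the vehicle arrays. The other 4 analogue arrays read between 1306.3 and 6291.4. The highest array inside the limit was MEB55 6 h replicate 2, at 0.28 above the vehicle mean on the log2 scale, and the lowest array outside it was ST362 6 h replicate 1, at 3.89 above. The plot of HSPA6 by array shows this gap. The promoter of HSPA6 is shown because the gene chose the arrays. It is the 200 bases before the annotated start at chr1:161524340-161524539 of GRCh38.p14, plus strand, from RefSeq, with capitals marking GAANNTTC, the core of a heat shock element, which reads the same on both strands. The 200-base window held 2 matches, and 4.5% of 35116 RefSeq promoter windows of that length held at least 1.
HSPA6: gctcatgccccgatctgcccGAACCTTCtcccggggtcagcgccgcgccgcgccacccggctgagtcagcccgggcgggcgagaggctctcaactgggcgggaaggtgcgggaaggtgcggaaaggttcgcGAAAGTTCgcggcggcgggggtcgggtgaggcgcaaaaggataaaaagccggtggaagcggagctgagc

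**Figure D1:**
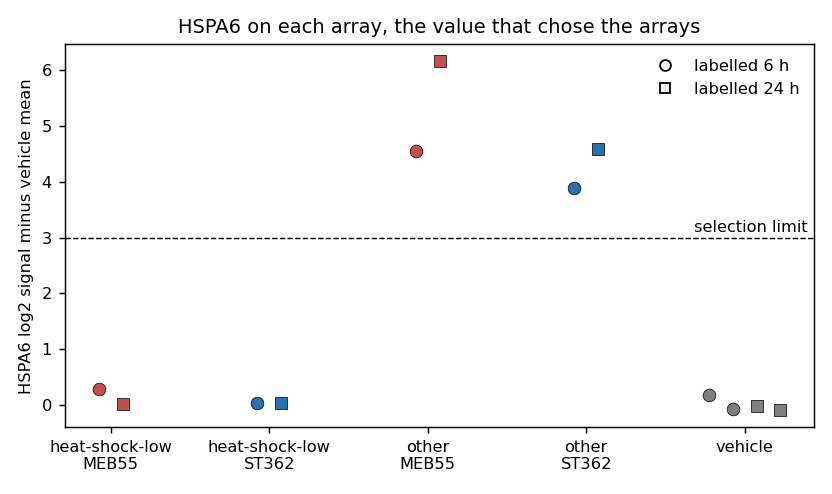
Deposited HSPA6 signal of each of the 12 arrays as log2 minus the vehicle mean, with circles for 6 h, squares for 24 h and a dashed line at the limit of 3. The 4 heat-shock-low arrays sit at or below 0.28, 3 of them within the vehicle range of -0.09 to 0.18 and MEB55 6 h replicate 2 above it, and the other 4 analogue arrays sit between 3.89 and 6.16.

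The arrays of the set were similar in brightness to vehicle. The median probe signal was 80.7 to 83.5 on the heat-shock-low arrays and 82.4 to 90.4 on the vehicle arrays, and 42.7% to 45.6% of probes were detected on the heat-shock-low arrays, against 43.3% to 47.4% on the vehicle arrays. Vehicle 6 h replicate 1 was the brightest, with a 75th percentile of 149.3 against at most 125.4 on any heat-shock-low array. All levels below are log2 signals after background correction and quantile normalization over the arrays, and values are listed with the array labelled 6 h before the array labelled 24 h, and vehicle replicate 1 before replicate 2 within each time. Because the arrays were chosen on this contrast, differences from vehicle are given as a description with their standard error (SE) and without a p-value. Tests are given for 2 comparisons that the rule did not use, MEB55 against ST362 within the set and 24 h against 6 h within the set, and for all 8 analogue arrays against vehicle, where the groups come from the labels. The labels do not state that replicates were separate cultures, so a p-value measures only the spread between these arrays, and the number of arrays limits the precision.

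Of 12290 genes tested, the fit across all genes called 343 higher (2.79%) and 384 lower (3.12%) on the heat-shock-low arrays than on the vehicle arrays. All 4 heat-shock-low arrays lay above all 4 vehicle arrays for 644 genes (5.24%) and below them for 669 (5.44%), and the median difference over all genes was 0. The count of 727 calls was lower without any 1 heat-shock-low array, at 315 without MEB55 6 h replicate 2, 351 without MEB55 24 h replicate 1, 379 without ST362 6 h replicate 2 and 261 without ST362 24 h replicate 1, and it was 465 without vehicle 24 h replicate 1. The MEB55 arrays alone gave 98 higher (0.797%) and 112 lower (0.911%), and the ST362 arrays alone gave 533 higher (4.34%) and 517 lower (4.21%). The MEB55 count of 210 was 29 without its 6 h array, 31 without its 24 h array and 99 without vehicle 24 h replicate 2, and the ST362 count of 1050 was 338 without its 6 h array and 201 without its 24 h array. Because the rule used this contrast, nothing is read from these counts beyond their size. The 8 analogue arrays include the 4 of the set, and the vehicle arrays are the same, so a comparison of all 8 is not separate from the one above. Over all 8 analogue arrays, where the labels alone set the groups, 86 genes rose (0.7%) and 90 fell (0.732%). Those 176 calls rested on single arrays, with 0 left without vehicle 24 h replicate 2 (limma, lowest adjusted p of the named genes = 0.0589), 5 without vehicle 6 h replicate 2, 27 without vehicle 24 h replicate 1 and 51 without vehicle 6 h replicate 1, and with 103, 107 and 115 without MEB55 6 h replicate 1, the 24 h replicate 1 array of ST362 and its 6 h replicate 2 array. In the text below, "rose" and "fell" are used of genes that passed this comparison of all 8 arrays, and every such call carries that limit.

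The small noncoding RNAs gave some of the widest gaps between the heat-shock-low arrays and vehicle. RN7SK was 10.57 and 10.03 on the MEB55 arrays and 10.70 and 10.24 on the ST362 arrays, against 7.71, 7.94, 8.02 and 7.93 on the vehicle arrays. Every heat-shock-low array stood above every vehicle array, and the difference of 2.48, SE 0.15, corresponds to 5.6-fold. A second RN7SK probe differed by 3.97 (SE 0.18). SNORD3D was 11.03 and 10.63 on the MEB55 arrays and 10.93 and 10.62 on the ST362 arrays, against 7.90, 8.67, 8.40 and 8.47 on the vehicle arrays (difference of 2.44, SE 0.17). SNORD3A was 10.14 and 9.58 on the MEB55 arrays and 10.05 and 9.63 on the ST362 arrays, against 7.21, 7.70, 7.70 and 7.93 on the vehicle arrays (difference of 2.22, SE 0.18). SNORD3C was 9.05 and 8.38 on the MEB55 arrays and 8.58 and 8.36 on the ST362 arrays, against 5.82, 6.45, 6.23 and 6.53 on the vehicle arrays (difference of 2.33, SE 0.18). The U3 copies are nearly identical, so their probes can share signal and the 3 readings are not independent, and RN7SK likewise has many near copies in the genome. No difference between the compounds was detectable on these RNAs. The MEB55 minus ST362 difference was -0.17 (95% interval -0.65 to 0.31) for RN7SK, 0.02 (95% interval -0.54 to 0.58) for SNORD3A and 0.06 (95% interval -0.48 to 0.59) for SNORD3D. In whole-culture RNA, fewer cells that make a transcript and less of it per cell cannot be told apart, here and in every result that follows. On the other analogue arrays RN7SK read between 7.70 and 9.42, and over all 8 arrays it did not pass the test (difference 1.51, adjusted p = 0.191).

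The wider group of small nucleolar, nuclear and other small RNAs did not move as one. Of 186 measured, 22 lay above and 3 below all vehicle arrays, 15 were called higher and 0 lower, and the median difference was 0.05, against 0 over all genes. Over all genes 5.24% lay above and 5.44% below, with 2.79% called higher and 3.12% lower. Beside U3 and RN7SK, the higher ones included the guide RNA SNORA80A (difference of 1.40, SE 0.12), the spliceosomal RNU4-2 (difference of 1.33, SE 0.34) and RNU6ATAC of the minor spliceosome (difference of 0.77, SE 0.11). Without background correction SNORA80A was 0.91 and RNU6ATAC 0.35. SNORA74B rose over all 8 analogue arrays (0.65, adjusted p = 0.0371). Without MEB55 6 h replicate 2 the count called higher was 7. The signal recognition particle RNA RN7SL1, also made by RNA polymerase III, was 13.41 and 13.22 on the MEB55 arrays and 13.53 and 13.17 on the ST362 arrays, against 13.35, 13.46, 13.60 and 13.54 on the vehicle arrays, and these groups overlapped. The protein partners of RN7SK overlapped too: the differences were 0.04 for the P-TEFb inhibitor HEXIM1, 0.07 for the RN7SK-binding protein LARP7, 0.01 for the P-TEFb kinase CDK9 and 0.16 for its cyclin CCNT1.

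Some ribosomal RNA probes were higher beside the small RNAs. RNA28SN5, the large ribosomal RNA, was 13 and 11.56 on the MEB55 arrays and 12.24 and 11.46 on the ST362 arrays, against 8.77, 9.65, 10.69 and 10.15 on the vehicle arrays (difference of 2.25, SE 0.39), though a second probe for it differed by only 0.70 with overlapping arrays. RNA5S9, a 5S ribosomal RNA, was 10.09 and 8.34 on the MEB55 arrays and 8.35 and 7.96 on the ST362 arrays, against 7.09, 7.62, 7.92 and 7.17 on the vehicle arrays (difference of 1.23, SE 0.31), and the difference was 0.79 without MEB55 6 h replicate 2. RNA18SN5, the small ribosomal RNA, was 9.34 and 8.25 on the MEB55 arrays and 8.62 and 6.96 on the ST362 arrays, against 7.61, 7.58, 8.67 and 8.42 on the vehicle arrays, with overlap. The 3 genes together summed to a log2 signal of 11.64 to 13.28 on the heat-shock-low arrays and 9.58 to 11.17 on the vehicle arrays. That sum of linear signals was mostly the brighter RNA28SN5 probe, itself 11.46 to 13 on the heat-shock-low arrays, so it is not a result of 3 separate genes. The part of ribosomal RNA signal in the small RNA result was not tested.

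**Figure D2:**
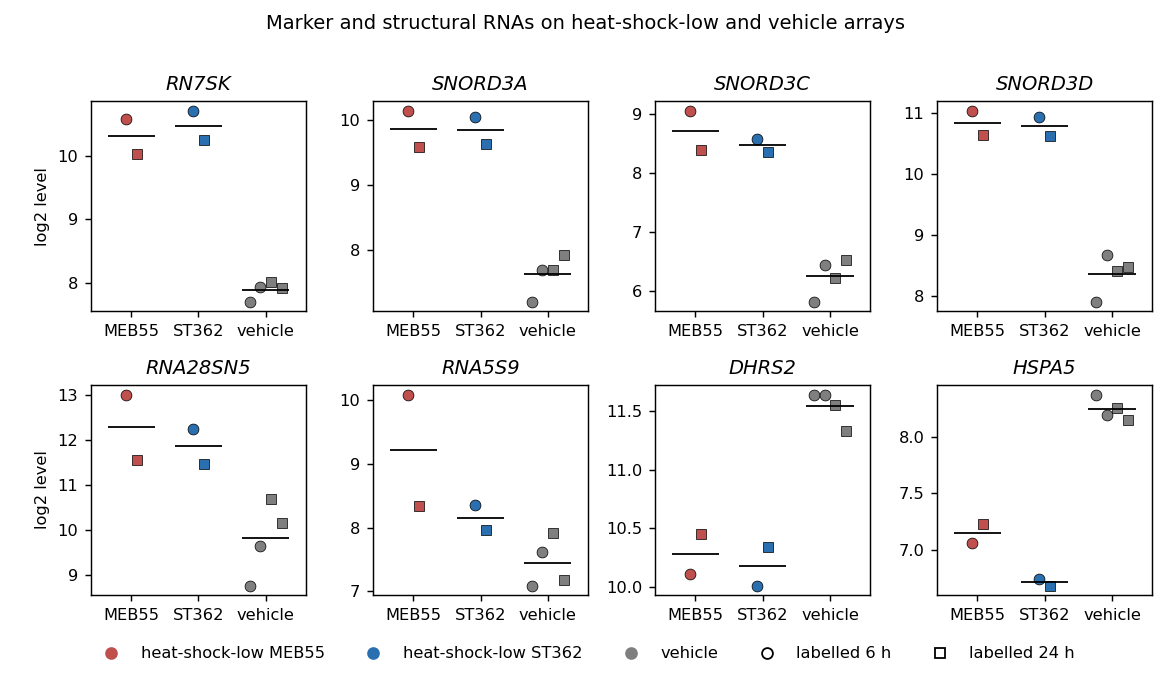
Log2 level of 8 genes on each heat-shock-low MEB55, heat-shock-low ST362 and vehicle array (circles 6 h, squares 24 h), with a bar at each mean and an axis of its own for each gene, not starting at 0. RN7SK, the 3 U3 copies and RNA28SN5 sit higher on the heat-shock-low arrays, RNA5S9 has 1 MEB55 array far above the rest at 10.09, and DHRS2 and HSPA5 sit lower with no overlap.

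DHRS2 was lower on the heat-shock-low arrays. Its level was 10.11 and 10.45 on the MEB55 arrays and 10.01 and 10.34 on the ST362 arrays, against 11.64, 11.64, 11.55 and 11.33 on the vehicle arrays (difference of -1.31, SE 0.14), so that vehicle exceeded the heat-shock-low arrays 2.48-fold. Every heat-shock-low array lay below every vehicle array, and a second DHRS2 probe differed by -1.45. MEB55 and ST362 did not differ beyond their spread on DHRS2 (MEB55 minus ST362 0.10 (95% interval -0.31 to 0.52)). Over all 8 analogue arrays DHRS2 did not pass (-0.80, adjusted p = 0.183). Of 23 short-chain and aldehyde dehydrogenases measured, 4 lay above and 2 below all vehicle arrays, with 3 called higher and 1, DHRS2, called lower. Over all genes 5.24% lay above and 5.44% below, with 2.79% called higher and 3.12% lower. ALDH2, the mitochondrial aldehyde dehydrogenase, was 7.97 and 7.84 on the MEB55 arrays and 7.65 and 7.73 on the ST362 arrays, against 6.66, 6.68, 7.06 and 7.42 on the vehicle arrays (difference of 0.84, SE 0.17), and DHRS7 differed by 0.63. The DHRS2 promoter is shown with that of HSPA5, the chaperone BiP of the endoplasmic reticulum, as the lower genes of the marker plot. Both are the 200 bases before the start in GRCh38.p14 from RefSeq, DHRS2 at chr14:23629915-23630114 on the plus strand and HSPA5 at chr9:125241344-125241543 on the minus strand. Capitals mark TATAAA in DHRS2, found in 8.59% of windows, and the endoplasmic reticulum stress element in HSPA5, CCAAT and CCACG at a fixed spacing, found in 0.0626% of windows, both searched on both strands.
DHRS2: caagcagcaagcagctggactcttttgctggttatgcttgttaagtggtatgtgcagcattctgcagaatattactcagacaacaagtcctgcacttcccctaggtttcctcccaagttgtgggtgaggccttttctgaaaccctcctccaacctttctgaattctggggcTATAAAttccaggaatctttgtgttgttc
HSPA5: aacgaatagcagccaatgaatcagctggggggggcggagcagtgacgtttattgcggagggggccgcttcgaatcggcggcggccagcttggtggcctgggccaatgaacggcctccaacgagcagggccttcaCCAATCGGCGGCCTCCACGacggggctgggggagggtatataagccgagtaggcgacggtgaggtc

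HSPA5 was 7.06 and 7.23 on the MEB55 arrays and 6.74 and 6.68 on the ST362 arrays, against 8.38, 8.20, 8.26 and 8.15 on the vehicle arrays (difference of -1.32, SE 0.11). On the other 4 analogue arrays it read between 8.46 and 9.60, above every vehicle array, so the 2 arrays of each compound at each time lay on opposite sides of vehicle for this gene. MANF, a secreted factor of the same stress response, was 10.77 and 10.72 on the MEB55 arrays and 10.17 and 10.08 on the ST362 arrays, against 10.80, 11.20, 11.10 and 11.12 on the vehicle arrays (difference of -0.62, SE 0.12). These were the only 2 of 24 unfolded protein response genes called, both lower, where 3.12% of all genes were called lower, and the median of the list was 0.03. Of 29 heat shock and chaperone genes measured, 2 lay above and 2 below all vehicle arrays, 1 of the 2 above being HSPA6, the gene that chose the arrays. Only CRYAB, a small heat shock protein, was called, and the median difference was -0.10. Over all genes 5.24% lay above and 5.44% below, with 2.79% called higher, so these chaperone counts are near the shares over all genes. CRYAB was 9.73 and 8.84 on the MEB55 arrays and 9.93 and 9.19 on the ST362 arrays, against 7.28, 8.40, 7.99 and 8.65 on the vehicle arrays (difference of 1.34, SE 0.29), and it rose over all 8 analogue arrays (1.51, adjusted p = 0.0256).

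Among protein-coding genes, CCL20, SPP1, GDF15, SLC7A11 and DUSP5 were among those furthest above vehicle. CCL20, a chemokine, was 8.75 and 8.87 on the MEB55 arrays and 7.96 and 7.95 on the ST362 arrays, against 6.56, 5.16, 6.30 and 5.50 on the vehicle arrays (difference of 2.50, SE 0.26). SPP1, osteopontin of the bone matrix, was 8.85 and 9.54 on the MEB55 arrays and 7.89 and 8.99 on the ST362 arrays, against 6.04, 6.08, 6.84 and 6.94 on the vehicle arrays (difference of 2.34, SE 0.28), and it rose over all 8 analogue arrays (1.81, adjusted p = 0.0276). GDF15, a stress-induced cytokine of the TGF-beta family, was 7.86 and 7.83 on the MEB55 arrays and 8.53 and 8.95 on the ST362 arrays, against 6.13, 6.82, 6.46 and 6.59 on the vehicle arrays (difference of 1.79, SE 0.16). The heat-shock-low arrays did not overlap vehicle for any of these 3 genes, and GDF15 also rose over all 8 arrays (2.56, adjusted p = 0.0224). SLC7A11, the cystine importer, was 9.13 and 9.22 on the MEB55 arrays and 8.96 and 8.98 on the ST362 arrays, against 7.15, 6.83, 8.08 and 7.48 on the vehicle arrays (difference of 1.69, SE 0.22), and rose over all 8 (1.51, adjusted p = 0.0162). DUSP5, a phosphatase that switches off ERK in the nucleus, was 8.93 and 8.59 on the MEB55 arrays and 8.81 and 8.81 on the ST362 arrays, against 7.58, 6.67, 7.50 and 7.07 on the vehicle arrays (difference of 1.58, SE 0.19), and rose over all 8 (1.16, adjusted p = 0.04). MMP3, a matrix protease, differed by 1.60, SPINK1, a trypsin inhibitor, by 1.74, RENBP, the renin-binding protein, by 1.74, and RIMBP3 by 1.79. Without background correction the last 3 were 0.76, 0.73 and 0.85. Among genes read by their brightest probe the difference was largest for the cornified envelope gene SPRR2D (difference of 3.05, SE 0.33, and 1.87 without background correction), which is described with the compounds below, since MEB55 and ST362 differed on it.

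The promoters of CCL20 and GDF15 are shown as those of 2 of the highest genes, with TATAAA in capitals, found in 8.59% of windows on either strand. Both are the 200 bases before the start on the plus strand of GRCh38.p14 from RefSeq, CCL20 at chr2:227813642-227813841 and GDF15 at chr19:18385958-18386157. The same windows of SPP1, SPINK1, RENBP and RIMBP3, also among the highest genes, held no match.
CCL20: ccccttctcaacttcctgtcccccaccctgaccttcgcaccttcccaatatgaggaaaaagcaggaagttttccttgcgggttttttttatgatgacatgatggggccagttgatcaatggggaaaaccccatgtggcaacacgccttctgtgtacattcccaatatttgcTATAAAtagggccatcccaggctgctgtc
GDF15: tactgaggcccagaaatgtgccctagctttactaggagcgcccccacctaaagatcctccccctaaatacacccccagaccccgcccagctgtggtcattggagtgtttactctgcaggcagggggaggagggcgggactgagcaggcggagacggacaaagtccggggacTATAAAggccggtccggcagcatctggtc

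Among the genes furthest below vehicle were COL1A1, TGFB2, TGFBI, KIF20A and NPPB. COL1A1, the main chain of type I collagen, was 7.48 and 7.01 on the MEB55 arrays and 8.14 and 6.86 on the ST362 arrays, against 8.89, 8.95, 9.03 and 9.14 on the vehicle arrays (difference of -1.63, SE 0.23). TGFB2, a TGF-beta ligand, was 5.37 and 5.36 on the MEB55 arrays and 6.32 and 6.64 on the ST362 arrays, against 7.15, 7.42, 6.81 and 7.06 on the vehicle arrays (difference of -1.19, SE 0.15), and it fell over all 8 analogue arrays (-1.41, adjusted p = 0.0219). TGFBI, a matrix protein named for its induction by TGF-beta, differed by -1.55 and fell over all 8 (-1.17, adjusted p = 0.0389). KIF20A, a kinesin of cytokinesis, was 7.73 and 8.08 on the MEB55 arrays and 7.05 and 6.80 on the ST362 arrays, against 8.72, 9.12, 8.52 and 9.16 on the vehicle arrays (difference of -1.47, SE 0.16) and fell over all 8 (-1.23, adjusted p = 0.0239). NPPB, the natriuretic peptide precursor, was 4.27 and 4.25 on the MEB55 arrays and 4.22 and 4.57 on the ST362 arrays, against 7.00, 7.13, 4.93 and 5.36 on the vehicle arrays, with vehicle itself split by time label. NPPB was detected on 1 of 4 heat-shock-low arrays and 4 of 4 vehicle arrays, and vehicle was at least 2.98-fold above the MEB55 arrays, on neither of which it was detected. CNTNAP2, a neurexin-like adhesion protein, was not detected on any heat-shock-low array and was detected on 4 of 4 vehicle arrays, at least 1.98-fold higher in vehicle (mean log2 signals 4.30 on heat-shock-low arrays and 5.50 on vehicle arrays). TRIM6, a ubiquitin ligase, differed by -1.21, NOX4, an NADPH oxidase, by -1.32, LMCD1 by -1.19, AMPH by -1.22, NREP by -1.37 and LCTL by -1.47, and of these TRIM6 (-1.37, adjusted p = 0.0102) and LCTL (-1.09, adjusted p = 0.048) fell over all 8. CYP24A1, the enzyme that breaks down active vitamin D, differed by -1.06 and fell over all 8 (-1.29, adjusted p = 0.0102). Without background correction NPPB was -0.79, AMPH -0.72, LMCD1 -0.77, TGFB2 -0.68, LCTL -0.61, CYP24A1 -0.53 and NOX4 -0.51, each over 1.5 times smaller.

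**Figure D3:**
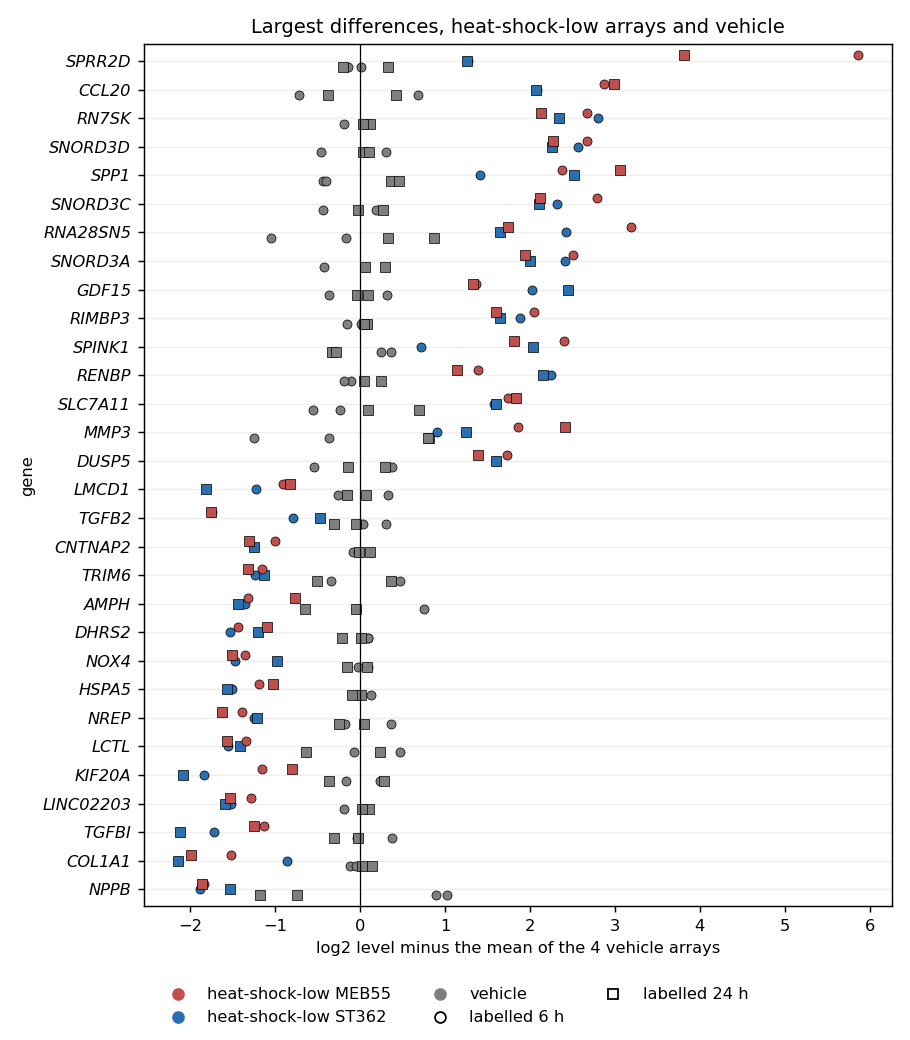
Log2 level minus the vehicle mean on each heat-shock-low MEB55, heat-shock-low ST362 and vehicle array (circles 6 h, squares 24 h), for the 15 genes furthest above and the 15 furthest below vehicle among those called without overlap. SPRR2D spreads most widely over the heat-shock-low arrays, and the vehicle arrays of NPPB split by time label.

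Genes of G2 and mitosis were lower as a group. Of 75 measured, 39 lay below all vehicle arrays, where 5.44% of all genes did, and 0 above. Of these 75, 50 were called lower, where 3.12% of all genes were, and 0 higher, and the median difference was -0.70, against 0 over all genes. The median of the list by array was -0.40 and -0.32 on the MEB55 arrays and -0.93 and -1.03 on the ST362 arrays, against -0.10 to 0.10 on the vehicle arrays. The count called lower was 28 to 47 without any 1 array, with 28 reached without ST362 24 h replicate 1. Over all 8 analogue arrays 24 of the 75 fell, where 0.732% of all genes did, and 0 rose. On the other analogue arrays the list median was -0.60 and -0.59 for MEB55 and -0.44 and -0.42 for ST362. Cyclin A2 was 10.23 and 10.06 on the MEB55 arrays and 9.34 and 9.38 on the ST362 arrays, against 10.71, 10.58, 10.68 and 10.76 on the vehicle arrays (difference of -0.93, SE 0.11), and it fell over all 8 (-0.91, adjusted p = 0.0234). The compounds differed here: 17 of the 75 genes were higher on the MEB55 arrays than on the ST362 arrays and 0 lower, where 1.19% of all genes were higher. The median of the list against vehicle was -0.35 for MEB55 and -1.01 for ST362. CDK1, the mitotic kinase, was 10.67 and 10.70 on the MEB55 arrays and 9.83 and 9.58 on the ST362 arrays, against 10.94, 10.82, 10.91 and 11.06 on the vehicle arrays (MEB55 minus ST362 0.98, adjusted p = 0.0133). CDC20, activator of the anaphase-promoting complex, differed between compounds by 1.07, adjusted p = 0.0313, the kinesin KIF2C by 1.02, adjusted p = 0.016, the kinase AURKB by 0.98, adjusted p = 0.0185, the kinetochore motor CENPE by 0.81, adjusted p = 0.0475 and CCNA2 by 0.79, adjusted p = 0.0265. On every one of these genes the ST362 arrays were further below vehicle. Second probes of CDK1 (0.73, limma adjusted p = 0.078) and CENPE (0.96, limma adjusted p = 0.0662) did not pass the test between compounds. None of these mitotic genes is among those, listed with the compounds below, that passed without any 1 array.

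The promoter of KIF11, a spindle kinesin among the mitotic genes that lay below vehicle, is shown with TTTGAA in capitals, the core of the cell-cycle homology region, here on the reverse strand. It is the 200 bases before the start at chr10:92592930-92593129 of GRCh38.p14 on the plus strand, from RefSeq, and 10.3% of windows held the motif on either strand. Of the mitotic genes described above, CDK1 and CDC20 also held it, and KIF20A, CCNA2, KIF2C, AURKB and CENPE did not. KIF11 was 7.30 and 7.71 on the MEB55 arrays and 7.06 and 6.73 on the ST362 arrays, against 8.07, 8.16, 8.31 and 8.06 on the vehicle arrays (difference of -0.95, SE 0.14).
KIF11: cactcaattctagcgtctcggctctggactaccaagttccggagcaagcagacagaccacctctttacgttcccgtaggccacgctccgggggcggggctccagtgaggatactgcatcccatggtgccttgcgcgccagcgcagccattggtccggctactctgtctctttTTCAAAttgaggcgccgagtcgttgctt

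Genes of S phase were lower as well. Of 59 measured, 16 lay below and 0 above all vehicle arrays, 14 were called lower and 0 higher, and the median difference was -0.33. Over all genes 5.44% lay below and 5.24% above, with 3.12% called lower and 2.79% higher. Their counts called lower were 3 to 13 without any 1 array, lowest without ST362 24 h replicate 1. The median was -0.14 for MEB55 arrays and -0.55 for ST362 arrays, and 2 genes were higher with MEB55 than with ST362, the ribonucleotide reductase subunit RRM2 (1.14, adjusted p = 0.0286) and the helicase loader CDC45 (0.95, adjusted p = 0.0222). Over all genes 1.19% were higher with MEB55. DUT, which keeps uracil out of DNA, had the largest difference among those without overlap (difference of -1.08, SE 0.13), and -0.60 as the mean of its probes. Of 39 histone genes, 2 were called higher and 5 lower, where 2.79% and 3.12% of all genes were, with a median of -0.17. The vehicle arrays had list medians of -0.22 to 0.18 for the histone genes.

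Genes of the integrated stress response, which ATF4 controls, were above vehicle more often than below. Of 45 measured, 14 lay above and 0 below all vehicle arrays, 9 were called higher and 0 lower, and the median was 0.18. Over all genes 5.24% lay above and 5.44% below, with 2.79% called higher and 3.12% lower. Of the list, DDIT3 (0.24) and ATF3 (0.13) overlapped vehicle. The count called was 5 to 9 without any 1 array, lowest without ST362 24 h replicate 1. ATF4 itself was 13.09 and 13.09 on the MEB55 arrays and 12.99 and 13.01 on the ST362 arrays, against 12.56, 12.65, 12.62 and 12.63 on the vehicle arrays (difference of 0.43, SE 0.11). Over all 8 analogue arrays 6 of the list rose, where 0.7% of all genes did, among them the pseudokinase TRIB3 (0.95, adjusted p = 0.0249), the cysteine enzyme CTH (1.19, adjusted p = 0.0403) and PPP1R15A, a phosphatase subunit that restores translation (1.27, adjusted p = 0.0277). TRIB3 was the only one that differed between compounds (MEB55 minus ST362 0.90, adjusted p = 0.041). Of 23 NRF2 antioxidant genes, 5 lay above and 0 below vehicle, with 2 called higher and a median of 0.39. By array the median of this list was 0.56 and 0.3 on the MEB55 arrays and 0.3 and 0.21 on the ST362 arrays. The vehicle arrays ran from -0.38 to 0.37, so only MEB55 6 h replicate 2 lay outside their range, and no shift of the list is read from its median. TXNRD1, thioredoxin reductase, was 10.30 and 10.96 on the MEB55 arrays and 10.45 and 10.86 on the ST362 arrays, against 9.42, 9.72, 9.93 and 9.56 on the vehicle arrays (difference of 0.98, SE 0.17).

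Immediate early and AP-1 genes were above vehicle as well. Of 27 measured, 11 lay above and 1 below all vehicle arrays, 11 were called higher and 0 lower, and the median was 0.43. Over all genes 5.24% lay above and 5.44% below, with 2.79% called higher and 3.12% lower. The count called was 4 to 10 without any 1 array, lowest without ST362 24 h replicate 1. EGR1, an immediate early transcription factor, was 9.36 and 8.97 on the MEB55 arrays and 9.19 and 8.57 on the ST362 arrays, against 7.67, 7.65, 7.52 and 7.81 on the vehicle arrays (difference of 1.36, SE 0.15), and on the other 4 analogue arrays it read between 6.95 and 7.65. SPRY2, a brake on receptor tyrosine kinase signalling, differed by 0.97, FOSL1 by 0.73 and FOS by 0.70, and FOS was 0.26 without background correction. Of 23 cytokine and NF-kB genes, to be set against the same shares over all genes, 6 lay above and 0 below vehicle, 9 were called higher and 0 lower, and the median was 0.45. That count was 6 to 9 without any 1 array, lowest without ST362 6 h replicate 2. NFKB2 differed by 0.78 and RELB, its dimer partner, by 0.75, and without background correction they were 0.46 and 0.42. CXCL8 (1.76, adjusted p = 0.0191) and IL1A (1.70, adjusted p = 0.0174) rose over all 8 analogue arrays.

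**Figure D4:**
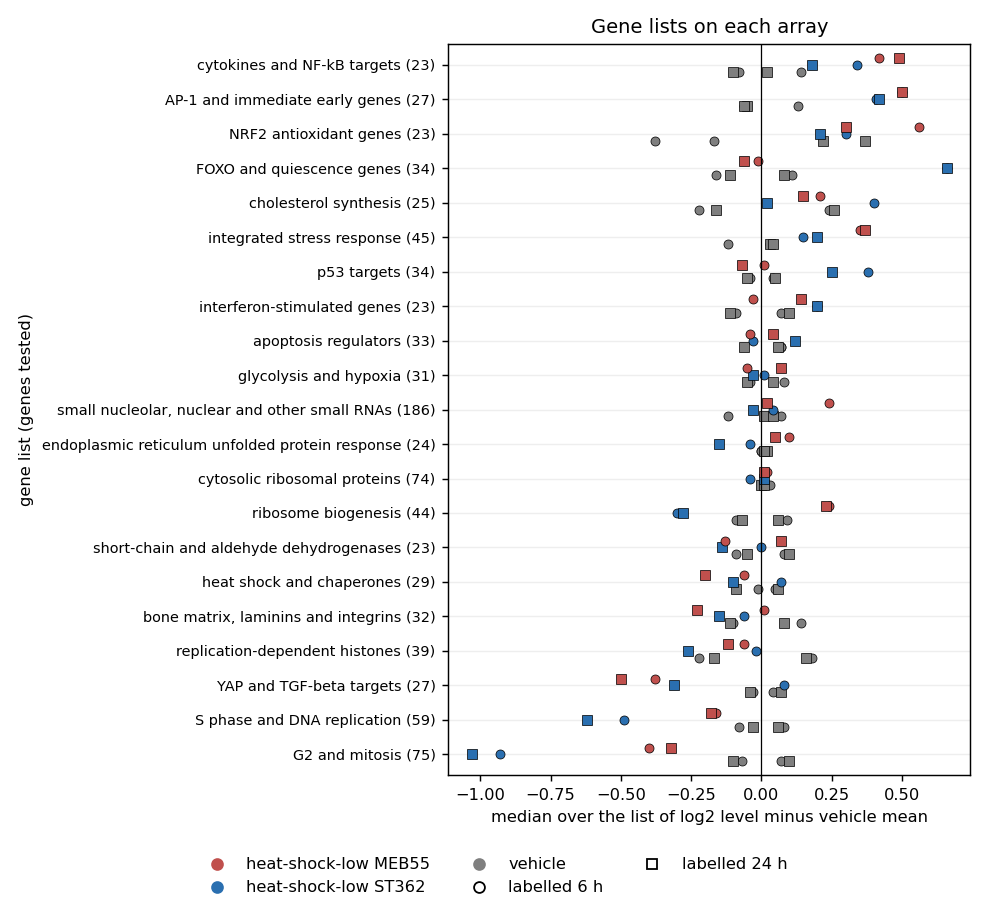
Median of each gene list (genes tested in brackets) on each array, as log2 level minus the vehicle mean, with circles for 6 h and squares for 24 h. The G2 and mitosis list is lowest, at -0.40 and -0.32 on the MEB55 arrays and -0.93 and -1.03 on the ST362 arrays, against -0.10 to 0.10 on the vehicle arrays.

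Markers of the labelled cell type held in part. Of 16 osteoblast and mesenchymal markers 12 were measured, with VIM, vimentin, at 12.40 and 12.39 on the MEB55 arrays and 12.52 and 12.49 on the ST362 arrays, against 13.19, 12.83, 12.78 and 12.66 on the vehicle arrays. RUNX2, the master factor of the osteoblast, was detected on 3 of 4 heat-shock-low arrays, at 4.60 and 4.26 on the MEB55 arrays and 4.95 and 4.65 on the ST362 arrays, against 4.88, 4.68, 5.28 and 5.18 on the vehicle arrays. In this list 1 lay above and 4 below vehicle, and 3 were called lower, COL1A1, THY1 and SNAI2, with a median of -0.40. Over all genes 5.24% lay above and 5.44% below, with 3.12% called lower. Among markers of other cell types, 2 of 12 epithelial, 6 of 13 blood, 1 of 8 endothelial and 2 of 10 neural genes were measured. The T cell gene CD3D was the blood marker furthest from vehicle without overlap, at 6.38 and 6.50 on the MEB55 arrays and 6.32 and 6.05 on the ST362 arrays, against 5.50, 5.79, 5.46 and 5.72 on the vehicle arrays (difference of 0.69, SE 0.13), and was 0.35 without background correction.

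The remaining lists are set against 2.79% of all genes called higher and 3.12% called lower, and 5.24% that lay above and 5.44% below all vehicle arrays. Of 25 cholesterol synthesis genes, 4 lay above and 0 below vehicle and 4 were called higher, with MSMO1 at 0.77 and CYP51A1 at 0.73, both sterol demethylation enzymes. Of 27 YAP and TGF-beta targets, 3 lay above and 4 below, with 2 called higher and 6 lower and a median of -0.25, and the 6 lower included TGFB2, TGFBI and AMPH. Of 74 ribosomal protein genes, 1 lay above and 2 below, with 0 called higher and 1 lower and a median of 0. Of 31 glycolysis and hypoxia genes 1 was called higher and 0 lower, of 32 bone matrix, laminin and integrin genes 3 were called higher and 3 lower, of 33 apoptosis regulators 2 higher and 2 lower, of 23 interferon-stimulated genes 1 higher and 0 lower, of 5 metallothioneins 1 higher and 1 lower, and of 16 small nucleolar RNA host genes 0 in either direction.

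The compounds were then compared within the set, at the same 5 ppm and with 1 array of each compound at each time. The spread behind these tests came from the heat-shock-low and the vehicle arrays together. Of 12290 genes, 146 were higher (1.19%) and 231 lower (1.88%) on the MEB55 arrays than on the ST362 arrays. The count of 377 was 41 without MEB55 24 h replicate 1, 37 without MEB55 6 h replicate 2, 44 without ST362 24 h replicate 1 and 25 without ST362 6 h replicate 2, fits in which the lone array was assumed to vary like the others. Of 48 named genes that passed, 7 also passed without any 1 array, and these were CCNG2, CXCL8, PLAC8, POLR3G, TMEM45A, YPEL3 and ZNF114. The low arrays of each compound were each other's closest array, although their time labels differed.

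CXCL8, the chemokine interleukin-8, was 10.69 and 10.33 on the MEB55 arrays and 7.33 and 7.15 on the ST362 arrays, against 7.84, 6.32, 7.46 and 6.56 on the vehicle arrays (MEB55 minus ST362 3.27, adjusted p = 0.00407). The MEB55 arrays stood above all others, and the ST362 arrays lay inside the range of vehicle. A second CXCL8 probe differed by 2.77. SPRR2D was 10.63 and 8.58 on the MEB55 arrays and 6.04 and 6.03 on the ST362 arrays, against 4.63, 4.78, 5.09 and 4.56 on the vehicle arrays (MEB55 minus ST362 3.57, adjusted p = 0.00468), and the adjusted p was 0.0505 without ST362 6 h replicate 2. SPRR2F, a close relative whose probe can share its signal, differed by 2.80, adjusted p = 0.0188. POLR3G, a subunit of RNA polymerase III, was 7.94 and 7.86 on the MEB55 arrays and 6.35 and 6.43 on the ST362 arrays, against 7.76, 7.42, 7.75 and 7.39 on the vehicle arrays (MEB55 minus ST362 1.51, adjusted p = 0.00407), so here ST362 was below vehicle while MEB55 was close to it. Further POLR3G probes differed by 1.26 and 0.42, the last not past the test. Other genes higher with MEB55 were the decoy receptor IL13RA2 (2.24, adjusted p = 0.00873), the G-protein regulators RGS2 (2.08, adjusted p = 0.00796) and RGS4 (2.09, adjusted p = 0.0313), the growth factor BMP6 (1.93, adjusted p = 0.00796), the matrix protein TNC (1.62, adjusted p = 0.00796), TMEM154 (1.75, adjusted p = 0.00763) and the adaptor TRAF1 (1.28, adjusted p = 0.0188). A second TRAF1 probe differed by 0.59, not past the test. The promoter of CXCL8 is shown as the chemokine that separated the compounds, the 200 bases before the start at chr4:73740369-73740568 of GRCh38.p14 on the plus strand, from RefSeq, with TGACTCA in capitals, the AP-1 site, found in 3.54% of windows on either strand.
CXCL8: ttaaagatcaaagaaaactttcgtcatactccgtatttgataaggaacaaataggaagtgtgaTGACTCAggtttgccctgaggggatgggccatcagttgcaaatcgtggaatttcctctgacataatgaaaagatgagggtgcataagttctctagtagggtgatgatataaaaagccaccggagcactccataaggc

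ZNF114 and PLAC8 had the largest differences among the named genes that were lower with MEB55 than with ST362. ZNF114, a zinc finger gene, was 5.73 and 5.70 on the MEB55 arrays and 8.38 and 9.04 on the ST362 arrays, against 5.78, 5.59, 5.84 and 6.16 on the vehicle arrays (MEB55 minus ST362 -3, adjusted p = 0.000607), and a second probe differed by -1.83. The MEB55 arrays lay inside the vehicle range and both ST362 arrays stood above it. CCNG2, an atypical cyclin linked to cell cycle arrest, was 5.58 and 5.47 on the MEB55 arrays and 7.52 and 7.40 on the ST362 arrays, against 5.63, 6.09, 5.94 and 6.03 on the vehicle arrays (MEB55 minus ST362 -1.94, adjusted p = 0.00246), but its other probes differed by -0.85 and -0.32, the last not past the test. PLAC8 differed by -2.44, adjusted p = 0.00421, JUP, plakoglobin of cell junctions, by -1.86, adjusted p = 0.00468, TMEM45A by -1.84, adjusted p = 0.00407, CD70, a ligand of T cell costimulation, by -1.76, adjusted p = 0.016 and CCL2, a monocyte chemokine, by -1.68, adjusted p = 0.00806. PRSS35 was not detected on either MEB55 array and was at least 4.65-fold higher with ST362 (means of 4.4 on the MEB55 arrays and 6.75 on the ST362 arrays, adjusted p = 0.0128). HSPA1A, a heat shock HSP70, differed by -1.23, adjusted p = 0.0105, and its heat-shock-low arrays overlapped vehicle (difference of -0.31, SE 0.13). The probe of its copy HSPA1B, which may share the signal, differed between compounds by -0.77 (limma, adjusted p = 0.0656) and did not pass.

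**Figure D5:**
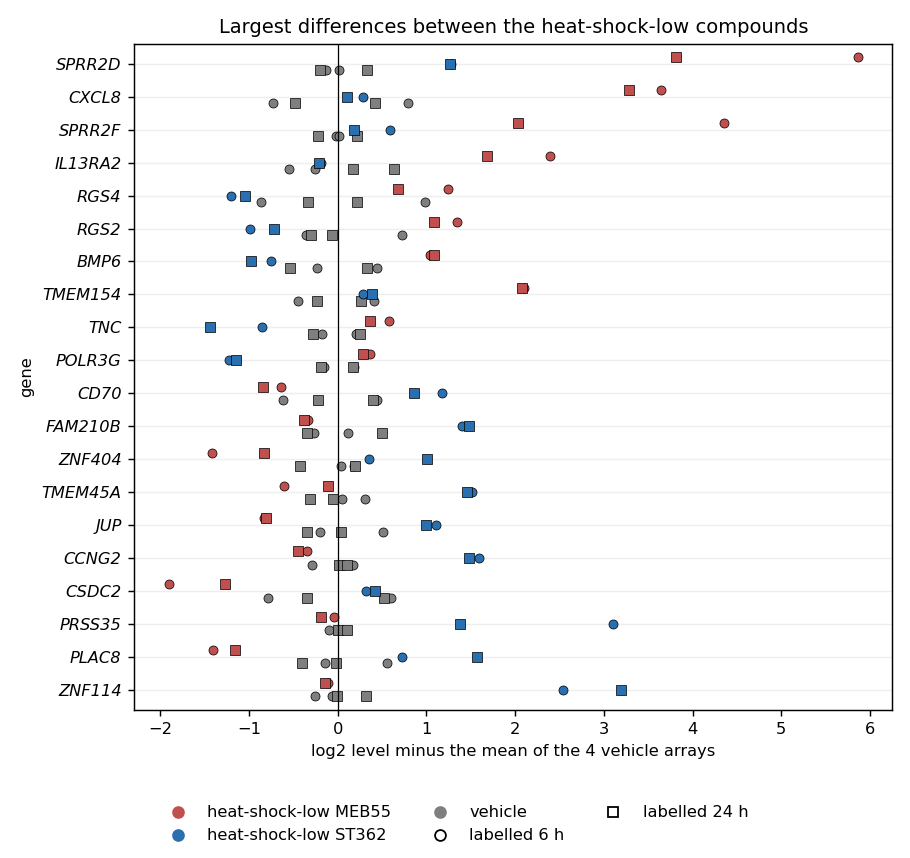
Log2 level minus the vehicle mean on each heat-shock-low MEB55, heat-shock-low ST362 and vehicle array (circles 6 h, squares 24 h), for the 10 genes with the largest difference between the compounds in each direction. The MEB55 arrays of CXCL8 stand above all other arrays drawn, and the ST362 arrays of ZNF114 and CCNG2 do so for those genes.

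Members of several further lists differed between the compounds, where 1.19% of all genes were higher and 1.88% lower with MEB55. Of 34 FOXO target and quiescence genes, 13 were lower with MEB55 and 0 higher, with median differences from vehicle of 0.01 for MEB55 arrays and 0.68 for ST362 arrays. The 13 included YPEL3 (-1.72, adjusted p = 0.00407) and YPEL5 (-1.47, adjusted p = 0.00421), the factor FOXO4 (-1.21, adjusted p = 0.0145), the PI3K inhibitor PIK3IP1 (-1.21, adjusted p = 0.00647), the CDK inhibitor CDKN1C (-1.15, adjusted p = 0.0185), the autophagy gene GABARAPL1 (-1.26, adjusted p = 0.0499) and the ubiquitin ligase FBXO32 (-1.14, adjusted p = 0.0305). GABARAPL1 (1.67, adjusted p = 0.0162) and FBXO32 (1.30, adjusted p = 0.0276) also rose over all 8 analogue arrays. Of 34 p53 targets, 6 were lower with MEB55 and 0 higher, among them the quinone oxidoreductase TP53I3 (-1.56, adjusted p = 0.00642), though a second, dim TP53I3 probe differed by only -0.16, not past the test. Of 27 YAP and TGF-beta targets, 4 were lower with MEB55 and 0 higher, TGFB2 among them (-1.12, adjusted p = 0.0188), with medians against vehicle of -0.43 for MEB55 and -0.15 for ST362. Of 44 ribosome biogenesis genes, 8 were higher with MEB55 and 0 lower, with medians against vehicle of 0.24 for MEB55 and -0.31 for ST362, and they included the histone chaperone NPM3 (1.36, adjusted p = 0.00647), PES1 (1.05, adjusted p = 0.0123) and the coactivator PPRC1 (0.70, adjusted p = 0.0392).

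No gene passed the test of the time label within the set. The fit had a time term for the heat-shock-low arrays only, and its spread came largely from the vehicle arrays of both time labels. The test was therefore weakest for genes that differed by time label among the vehicle arrays, and nothing is read from its lack of calls. With 24 h against 6 h within the set, 0 of 12290 genes (0%) passed in limma, with a smallest adjusted p of 0.362, and 903 genes had an unadjusted p under 0.05. An unmoderated linear model on the same arrays gave 720 genes at an unadjusted p under 0.05 and 0 after Benjamini-Hochberg adjustment. The defensin DEFB103A, which has an identical copy, was 9.89 and 9.94 on the heat-shock-low arrays labelled 24 h and 8.03 and 6.04 on those labelled 6 h, against 5.75 and 5.51 on the vehicle arrays labelled 24 h and 7.49 and 7.48 on those labelled 6 h. HSF1, the heat shock factor, was 7.13 and 7.00 on the heat-shock-low arrays labelled 24 h and 5.85 and 5.57 on those labelled 6 h, against 6.10 and 5.95 on the vehicle arrays labelled 24 h and 7.19 and 7.20 on those labelled 6 h. AKR1C4, a steroid-converting reductase whose relatives share sequence, was 8.03 and 7.50 on the heat-shock-low arrays labelled 24 h and 9.07 and 9.52 on those labelled 6 h, against 8.04 and 7.88 on the vehicle arrays labelled 24 h and 5.01 and 5.74 on those labelled 6 h. For all 3 genes the order by time label on the heat-shock-low arrays was opposite to that on the vehicle arrays. On the other 4 analogue arrays the order was that of vehicle. DEFB103A read 5.91 and 6.32 on those labelled 24 h and 8.61 and 8.02 on those labelled 6 h, HSF1 read 6.26 and 6.18 on those labelled 24 h and 7.05 and 7.10 on those labelled 6 h, and AKR1C4 read 8.16 and 8.19 on those labelled 24 h and 5.79 and 5.39 on those labelled 6 h. These 3 genes were picked out after their values were seen, and none passed the test of the time label.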

How the data were processed

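RNA of U2OS cells was labelled by the authors with an oligo(dT)-primed kit and hybridised to HumanHT-12 bead arrays, which were read out with GenomeStudio (version not given in the sources used here). The authors deposited, for 47313 probes on each of 12 arrays, the mean bead intensity without background subtraction and a detection p-value against negative control probes. A second deposited table of series values held linear intensity that matched quantile-normalized signals within 0.366%, and served only as an alternative. From the deposited intensity, neqc of limma 3.58.1 in R 4.3.3 estimated background from the detection p-values, added an offset of 16, quantile-normalized the arrays and took log2. A probe was kept where its detection p fell below 0.05 on each array of some labelled group, which left 22186 probes. A gene was read by its brightest kept probe with 1 symbol, giving 12290 genes (30109 probes had 1 symbol, 8 several and 17196 none). limma (lmFit and eBayes) was fitted with Benjamini-Hochberg adjustment over all probes and a threshold of 0.05. Every comparison of the heat-shock-low arrays used a fit of these and the vehicle arrays. The tests of MEB55 against ST362 and of 24 h against 6 h within the set therefore took their spread partly from vehicle arrays. The comparison of all analogue arrays with vehicle used all 12 arrays. A probe detected on no array of a group gave only a bound, set at the lowest signal of any detected probe on each array.

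The arrays, the markers and the gene lists were chosen with earlier results of these data known. Genes were named by a rule: HSPA6 and the 4 markers, the largest called differences from vehicle without overlap (at most 15 each way), up to 4 non-overlapping members per list, up to 10 per direction between compounds and up to 5 by time label, and genes the study named. The ribosomal RNA list and the leave-one-out counts of lists were added after the data were seen, as were some list members named beside the rule. Replicate numbers did not pair the analogue arrays with vehicle: deviations of same-numbered arrays correlated at 0.08 and -0.17 for ST362 with vehicle, and at -0.14 and -0.06 for MEB55 with vehicle. For MEB55 with ST362 they correlated at 0.49 and 0.48. The fitting steps were tested on simulated data. Alternatives covered background, offset, normalization, probe filter, fit, covariates and leaving out each array.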

Additional observations from a re-analysis of the deposited data

Results flagged for a closer look

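Lone arrays were looked for in 386 groups of 4 arrays, and 9 had an array far from the others. That is a smaller share than the about 1 in 20 that chance gives for like arrays. These groups mix time labels, and the heat-shock-low groups mix compounds, so the 1 in 20 does not strictly apply. The arrays are listed as a description only. On ST362 24 h replicate 1, NPPB was 4.57 among heat-shock-low arrays otherwise between 4.22 and 4.27, and the 75th percentile of signal was 125.4 among 115.1 to 116.2. On MEB55 24 h replicate 1, DHRS7 was 10.34, CCL3L3 7.35 and CDC25C 6.35. On MEB55 6 h replicate 2, CDK6 was 10.41, and on ST362 6 h replicate 2, S100A6 was 11.27. Among the vehicle arrays, vehicle 6 h replicate 2 stood apart with HSD17B14 at 4.97 and EGLN3 at 4.39.

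The compounds differed on 48 named genes by the test of MEB55 minus ST362 itself (limma, adjusted p under 0.05). Higher with MEB55 were SPRR2D at 3.57, CXCL8 at 3.27, SPRR2F at 2.80, IL13RA2 at 2.24, RGS4 at 2.09, RGS2 at 2.08, BMP6 at 1.93, TMEM154 at 1.75, TNC at 1.62 and POLR3G at 1.51. Also higher with MEB55 were NPM3 at 1.36, TRAF1 at 1.28, RRM2 at 1.14, CDC20 at 1.07, PES1 at 1.05, KIF2C at 1.02, CDK1 at 0.98, AURKB at 0.98, CDC45 at 0.95, TRIB3 at 0.90, CENPE at 0.81, CCNA2 at 0.79, CCNF at 0.74 and PPRC1 at 0.70. Lower with MEB55 were ZNF114 at -3, PLAC8 at -2.44, CSDC2 at -1.95, CCNG2 at -1.94, JUP at -1.86, TMEM45A at -1.84, ZNF404 at -1.81, FAM210B at -1.80 and CD70 at -1.76. PRSS35 was fitted at -2.35, but it was detected on neither MEB55 array, so only the bound of at least 4.65-fold higher with ST362 holds. Also lower were YPEL3 at -1.72, CCL2 at -1.68, TP53I3 at -1.56, SLC44A2 at -1.47, YPEL5 at -1.47, GABARAPL1 at -1.26, HSD17B14 at -1.23, HSPA1A at -1.23, FOXO4 at -1.21, PIK3IP1 at -1.21, CDKN1C at -1.15, FBXO32 at -1.14, TGFB2 at -1.12 and RENBP at -0.94. Of the 48, 7 passed without any 1 array.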

How the results depend on the processing

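Counts of called genes were recomputed under each alternative, and 0 of the reported differences changed sign when called. The counts that moved over 1.5 times were as follows. Without the detection filter, heat-shock-low against vehicle gave 424 calls, heat-shock-low MEB55 against vehicle 63, MEB55 against ST362 197 and all 8 analogue arrays against vehicle 35, a setting that also tests probes not detected on any array. With the time label as a covariate, heat-shock-low against vehicle gave 476, MEB55 against vehicle 117 and MEB55 against ST362 179. With an unmoderated linear model on the same arrays as each main fit and the cutoffs of the methods (unadjusted p under 0.05, a fold of 2 and a signal of 100), which is not the 2-way ANOVA of the study, the counts were 100 for heat-shock-low against vehicle, 280 for ST362 against vehicle, 130 for MEB55 against vehicle, 208 for MEB55 against ST362, 6 for 24 h against 6 h and 62 for all 8 analogue arrays, and the same unmoderated p with Benjamini-Hochberg adjustment and no other cutoff gave 40, 187, 0, 6, 0 and 0. The cause of these shifts was not tested. Leaving out 1 array at a time gave 261 to 567 calls for heat-shock-low against vehicle, 201 to 949 for ST362, 29 to 229 for MEB55, 25 to 426 for MEB55 against ST362, 0 to 0 for the time label and 0 to 192 for all 8 analogue arrays. With the replicate block the counts were 810 for heat-shock-low against vehicle, 1145 for ST362, 259 for MEB55, 447 for MEB55 against ST362 and 156 for all 8 analogue arrays. No such fit exists for 24 h against 6 h, where replicate number and time label are the same split. Since the numbers do not pair the analogue arrays with vehicle, this is a hint only. MEB55 with ST362 arrays of the same number did correlate, at 0.49 and 0.48. At each time the arrays of the 2 compounds with the same number were also on the same side of the HSPA6 limit. Of 3633 recomputed low-minus-vehicle differences, 166 moved. Here moved means by at least the standard deviation over the 4 heat-shock-low arrays, not by 1.5 times. Leaving out 1 of these arrays cannot shift a difference that far, and neither can the covariates or the changes of the fit. No stability is therefore read from the share that moved. Of 861 recomputed MEB55-minus-ST362 tests 220 lost the call and 641 kept it, while of 734 over all 8 arrays 277 lost it. Of 48 list counts, 21 moved over 1.5 times without 1 array. Background correction sets how large the difference of a probe near background is, and 2 arrays per compound limit the precision of every compound difference.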
